A study of Mus musculus with 18 samples.

Results

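The genes described here are Myc and 37 genes that act in ribosome biogenesis or polyamine synthesis, 38 genes in all out of the 35275 gene identifiers of the table. They were named as a list, with no threshold on their measured values, and each symbol matched 1 Ensembl mouse gene. All 38 had a mean of at least 1 FPKM (fragments scaled to transcript length and to library depth) over the 18 libraries, and so all were among the 11646 genes tested.

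The samples were B cells of all subsets, isolated from the spleens of C57BL/6 mice and kept in culture. BAFF is a cytokine of the tumour necrosis factor family on which B cells depend for survival, and it was given as a 3mer or as a 60mer, in which BAFF trimers assemble into a larger particle. mBaffR-mFc is a fusion of the mouse BAFF receptor with an antibody Fc part, described by the submitters as a blocker of the surface of BAFF that the receptor BR3 binds. Total RNA was extracted, and whether poly(A) RNA was selected from it is not given in the sources used here.

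Every culture first received 1000 ng/ml of a pretreatment for 1 h and then either no BAFF or 100 ng/ml of BAFF, for 4 h. The 6 groups, with 3 libraries each, were control antibody alone (Ab), control antibody then BAFF 3mer (Ab_3mer), control antibody then BAFF 60mer (Ab_60mer), mBaffR-mFc alone (BRFc), mBaffR-mFc then BAFF 3mer (BRFc_3mer), and mBaffR-mFc then BAFF 60mer (BRFc_60mer). No group went without a pretreatment, and no culture was sampled before the 4 h point. The labels do not say whether the libraries of a group came from separate animals or cultures, and a p-value here sets a difference against the scatter of 3 libraries per group, which may be technical. The age and sex of the mice and the specificity of the control antibody are not given in the sources used here.

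MYC is a transcription factor that binds DNA as a dimer with MAX, and ribosome biogenesis genes are among its best known targets. Ribosomes are built in the nucleolus, where RNA polymerase I makes a long precursor RNA that small nucleolar ribonucleoproteins modify and a series of assembly factors cut, fold and package into the small and the large subunit. Resting B cells have small nucleoli and make few ribosomes, and the pathway is raised strongly when they are activated to divide.

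Against control antibody alone, 4 of the 38 genes (10.5%) rose with BAFF 60mer and none fell, in a comparison where 14% of all tested genes passed, 5.04% higher and 8.94% lower. They were Heatr1, Tsr1, Wdr12 and Polr1a, which rose by 0.18 to 0.28 on the log2 scale. Myc itself passed in no comparison. With BAFF 3mer, 0 of the 38 and 0% of all tested genes passed under either pretreatment, and between the pretreatments 0 of the 38 and at most 0.0258% of all tested genes did. Outside the 38, and from a list of the MYC network, the repressors Mxd4, Mnt and Mxd1 and the partner Max fell with BAFF 60mer after control antibody, and Mga, a further repressor that pairs with MAX, rose. Of these, Mxd1 passed in 0 of 6 fits with 1 library left out, and Mga in 3 of 6.

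Library depth recovered from the steps of the FPKM values was 12.2M to 25.4M fragments (median 18.4M). The summed level of 7 B cell markers was 4598 to 5288 FPKM in all 18 libraries. Summed markers of other cells stood at 44.0 to 55.6 FPKM for T cells, 127 to 157 FPKM for NK cells, 148 to 175 FPKM for monocytes and macrophages, 19.9 to 37.9 FPKM for neutrophils, 12.8 to 22.6 FPKM for dendritic cells, 299.7 to 356 FPKM for plasma cells and 1.57 to 4.13 FPKM for erythroid cells. Single genes made up much of some sums. Lck, at a mean of 44.8 FPKM, was the main part of the T cell sum. Each other T cell marker had a mean of at most 1.76 FPKM, that of Trac. Irf4, at 185 FPKM, was the largest part of the plasma cell sum, and Tnfrsf17 stood at 0.0773 FPKM. The sums therefore do not measure the share of a cell type. Some of these moved with BAFF 60mer. The NK cell sum was 127 to 128 FPKM in Ab_60mer against 147 to 157 FPKM in Ab, with 3 of 8 markers lower by limma, and 138 FPKM in each library of BRFc_60mer against 139 to 155 FPKM in BRFc, with 2 of 8 lower. The dendritic cell sum was 18.6 to 21.2 FPKM in Ab_60mer against 13.4 to 15.5 FPKM in Ab, and 17.9 to 22.6 FPKM in BRFc_60mer against 12.8 to 15.4 FPKM in BRFc, with 1 of 3 tested markers, Zbtb46, higher in both. Of the plasma cell markers 1 of 5, Sdc1, was lower with 60mer after both pretreatments, with a mean of 19.1 FPKM in Ab_60mer against 35.7 FPKM in Ab, and the sums of the plasma cell list overlapped. Of the other lists, 1 of 7 tested B cell markers was lower in both, 1 of 6 monocyte and macrophage markers was lower after control antibody, and no T cell or neutrophil marker passed. The part of these cells in the results below was not tested. The summed level of 6 connective tissue markers (Col1a1, Col1a2, Col3a1, Sparc, Dcn and Bgn) was 8.14 to 12.9 FPKM in 8 libraries and 0 to 0.131 FPKM in the other 10. Those 8 libraries were libraries 1 and 2 of Ab_3mer and all libraries of Ab_60mer and BRFc_60mer. Each comparison of BAFF 60mer with no BAFF, and that of BRFc_60mer with BRFc_3mer, therefore set 3 libraries with these transcripts against 3 without, and in those comparisons BAFF 60mer and whatever brought the transcripts cannot be told apart.

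Sequence upstream of the genes was read first for the E-box that MYC and MAX bind. RefSeq promoter windows (GRCm38.p6) matched 31 of the 38 symbols, and Myc, Fbl, Npm1, Rrp12, Rrs1, Bop1 and Srm had none. In the 250 bases before the start, CACGTG, which reads the same on both strands, was present in 1 of the 31 genes (3.23%), Nop2, and in 10.1% of the 8639 tested genes with a window. CCGGAAG, a core bound by ETS factors, searched on both strands, was present in 8 of 31 genes (25.8%) and in 17.5% of the tested genes. The 8 were Gar1, Heatr1, Ltv1, Nhp2, Nip7, Nolc1, Nop2 and Wdr74, and of these Heatr1 passed a comparison below. GGGCGG, the GC box, searched on both strands, was present in 19 of 31 genes (61.3%) and in 63.8% of the tested genes. None of these strings contains another, and a match is a description of the sequence, not of binding. Sequence after the start and further upstream was not searched, so a gene without a match here may hold the E-box elsewhere.

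The stretch of 100 bases before the start is shown for Nop2, the one gene with the E-box in these windows, and for Polr1a and Ddx21, which passed the test in a comparison below. Heatr1, Tsr1 and Wdr12 passed a comparison too, but their stretches overlap the annotated spans of their own genes and are not shown. Each stretch shown lies outside the annotated span of its own gene, and overlap with other genes was not checked. Capitals mark CACGTG and CCGGAAG where present.
Nop2: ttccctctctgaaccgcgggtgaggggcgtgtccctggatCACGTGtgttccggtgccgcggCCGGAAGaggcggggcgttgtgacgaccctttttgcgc
Polr1a: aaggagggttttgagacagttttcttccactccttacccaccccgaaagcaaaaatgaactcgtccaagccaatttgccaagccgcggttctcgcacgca
Ddx21: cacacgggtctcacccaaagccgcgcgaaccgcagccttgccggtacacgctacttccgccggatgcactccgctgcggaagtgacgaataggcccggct
The Nop2 stretch is chr6:125131783-125131882 on the plus strand, the Polr1a stretch chr6:71908953-71909052 on the plus strand, and the Ddx21 stretch chr10:62602299-62602398 on the minus strand. Nop2 carries the E-box and the ETS core close together, and neither motif is in the other 2 stretches. Nop2, a methyltransferase of the large subunit RNA, passed no comparison: its log2 difference was -0.12 for BAFF 60mer after control antibody and 0.05 after mBaffR-mFc.

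The 38 genes spanned a wide range of levels. Npm1 and Ncl, abundant chaperones of the nucleolus, had the highest means, 1055 and 928 FPKM, and stood above the 99th percentile of tested genes. Nop56, a core protein of box C/D ribonucleoproteins, followed at 327 FPKM, Dkc1, the pseudouridine synthase of box H/ACA ribonucleoproteins, at 209 FPKM, and Myc, next in order, at 198 FPKM. Rrp12, an assembly and export factor, was the lowest at 2.17 FPKM and rested on 130 to 219 fragments per library. The next lowest was Noc3l at 21.1 FPKM. Differences between libraries were small beside differences between genes: the highest library was 1.15 times the lowest for Npm1 and Pes1 and 1.55 times for Myc, Gar1 and Rrp12.

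**Figure D1:**
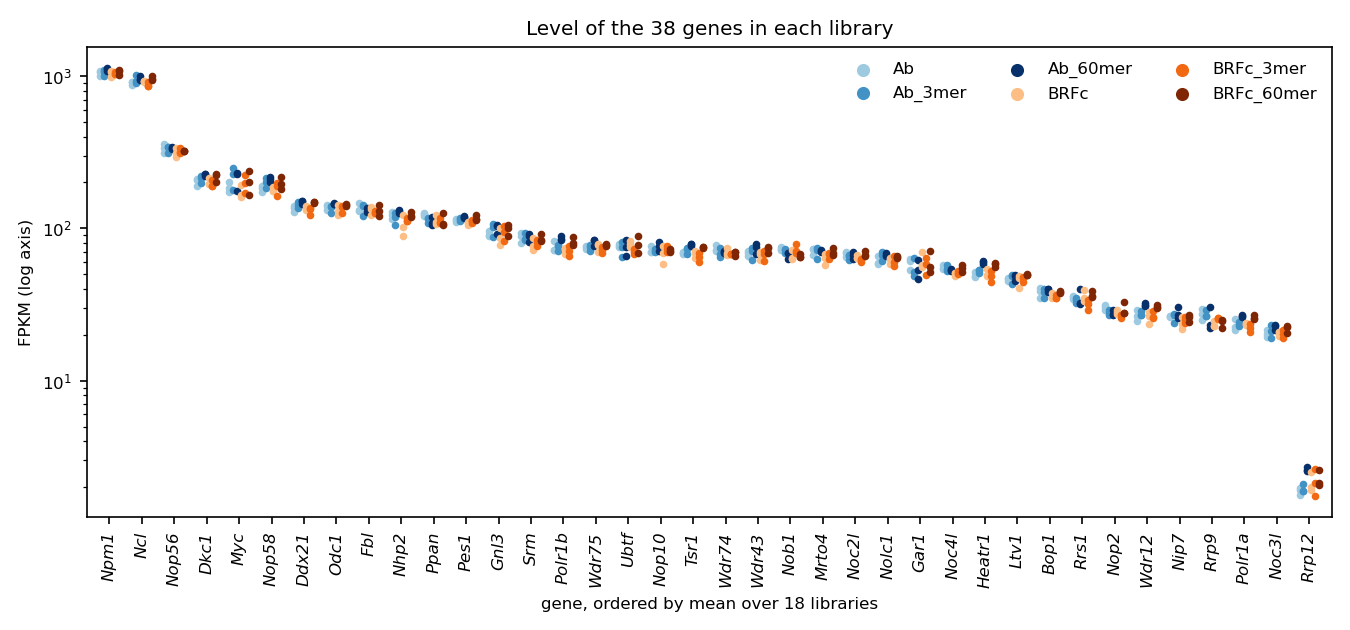
FPKM on a log axis (vertical) of each of the 38 genes (horizontal, ordered by mean over 18 libraries), with 1 point per library coloured by group. Levels run from about 1055 FPKM for Npm1 to 2.17 FPKM for Rrp12, and for most genes the points of the 6 groups lie on one another.

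The annotation (GENCODE M21, GRCm38) places snoRNA or scaRNA genes, the guides of RNA modification, inside 9 of the 38 genes on the same strand (23.7%), 24 such RNAs in all, against 1.96% of all tested genes. Nop56 holds 5, Nop58 holds 4, and Ncl, Gnl3 and Wdr43 hold 3 each. Exons of 13 of the 38 genes overlap exons of a gene on the opposite strand. Among them are all 4 genes that rose with BAFF 60mer after control antibody: Heatr1 with Lgals8, Tsr1 with Srr, Wdr12 with Carf and Polr1a with Gm26628. The share of all tested genes with such an overlap was not counted, so these numbers are a description only. Whether the counting used strand is not given in the sources used here, so fragments in the shared stretches cannot be assigned. The partners did not pass in that comparison: by limma, the log2 difference of Lgals8, at a mean of 57.3 FPKM, was -0.02 (adjusted p = 0.793), that of Srr, at 5.14 FPKM, 0.21 (adjusted p = 0.234), that of Carf, at 6.50 FPKM, 0.26 (adjusted p = 0.0963), and that of Gm26628, at 1.21 FPKM, 0.24 (adjusted p = 0.314).

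Myc (ENSMUSG00000022346, chr15:61985391-61990374, plus strand) was read in every library at a high level. After control antibody alone its 3 libraries stood at 201, 185 and 173 FPKM, with BAFF 3mer at 249, 229 and 177 FPKM, and with BAFF 60mer at 229, 226 and 176 FPKM. After mBaffR-mFc alone they stood at 192, 165 and 161 FPKM, with BAFF 3mer at 223, 199 and 170.2 FPKM, and with BAFF 60mer at 238, 199.8 and 165 FPKM. The groups overlapped in every one of these comparisons, and within each BAFF group 1 library was as low as libraries without BAFF.

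By limma, the Myc difference from no BAFF was 0.17 ± 0.144 (SE) for 60mer after control antibody (95% confidence interval -0.14 to 0.47, adjusted p = 0.475) and 0.21 after mBaffR-mFc (-0.10 to 0.51, adjusted p = 0.478). For BAFF 3mer it was 0.21 after control antibody and 0.19 after mBaffR-mFc, and neither passed. Between 60mer and 3mer it was -0.05 after control antibody (-0.35 to 0.25) and 0.02 after mBaffR-mFc. These intervals leave room for a rise of up to 0.51 or a fall of 0.14 with 60mer, and a p above the threshold does not show that the level was the same. Among the 38 genes Myc had the largest spread between libraries of a group, a residual SD of 0.20 on the log2 scale, against a median of 0.08 over the 38 and 0.09 over all tested genes.

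The spread of Myc had a pattern. The lowest library was library 3, in order of deposition, in 6 of 6 groups. That held for 7 of the 38 genes (Myc, Nop58, Gnl3, Polr1b, Wdr43, Ltv1 and Odc1; 18.4%) and for 1.49% of all tested genes. Library 3 was the highest in 6 of 6 groups for Gar1 and Ubtf (5.26%), against 5.11% of all tested genes. The labels do not say that libraries in the same place of deposition share an animal, a day or a batch, so this order was not used to pair libraries, and the test counts what it adds as spread. The first component of the residuals, which had its highest score in library 3 in 6 of 6 groups, was tried as a term after the data were seen. The SE of Myc was then 0.076, and its differences for BAFF 60mer, 0.17 after control antibody (limma, adjusted p = 0.134) and 0.21 after mBaffR-mFc (adjusted p = 0.101), did not pass, while the test over all 6 groups did (adjusted p = 0.0415). The component was computed from the residuals of these same libraries. The differences therefore kept their size, and a smaller SE was built in for genes that follow the component. No conclusion on Myc is drawn from the test over all 6 groups in that fit.

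The comparison of BAFF 60mer with no BAFF after control antibody held the most changes over all genes: 14% of 11646 tested genes passed, 5.04% higher and 8.94% lower. After rescaling the libraries by the median of ratios that split was 763 higher and 880 lower, against 587 higher and 1041 lower before. Of the 38 genes, 4 were higher (10.5%), 0 were lower and 34 did not pass. Their median difference was 0.07 on the log2 scale against -0.02 over all tested genes, and 27 of 38 differences were above 0, against 45.1% of all tested genes. At an unadjusted p under 0.05 there were 14 of 38, against 29.6% of all tested genes. In 15 of the 38 genes all 3 libraries with 60mer stood above all 3 without, and in 5 all stood below, against 13.5% and 19.2% of all tested genes. The share of the 38 above the background was not tested. With a yes-or-no term for connective tissue transcripts in the fit, 0 of the 38 genes passed, and the SE rose: Heatr1 then had a difference of 0.21 ± 0.104, Polr1a of 0.20, Wdr12 of 0.18 and Tsr1 of 0.07 ± 0.087. Few of all tested genes passed in that fit either (their number is given with Mxd4 below). No conclusion on the 38 is therefore drawn from that count. The difference of Myc in that fit was -0.26 ± 0.233 (limma, adjusted p = 0.836).

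Heatr1 (chr13:12395027-12440289, plus strand), a component of the early small subunit processome that also supports RNA polymerase I transcription, was the clearest of the 38. Its level was 48.6, 47.8 and 51.6 FPKM without BAFF and 58.6, 60.2 and 61.4 FPKM with 60mer after control antibody, so the groups did not overlap. The log2 difference was 0.28 ± 0.057 (SE, limma, adjusted p = 0.00499). After mBaffR-mFc it was 54.1, 49.2 and 48.5 FPKM without BAFF, 52.4, 48.6 and 44.1 FPKM with 3mer, and 58.9, 58.7 and 55.7 FPKM with 60mer. The 60mer libraries again stood above all others, with a difference of 0.19 from no BAFF that did not pass (adjusted p = 0.067) and of 0.25 from 3mer that did (adjusted p = 0.0147). The change after control antibody still passed without each of the 6 libraries in turn (highest adjusted p = 0.0252).

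Tsr1 (chr11:74898071-74909342, plus strand), a factor of late small subunit assembly in the cytoplasm, stood at 69.8, 67.9 and 69.0 FPKM after control antibody alone and at 78.5, 77.1 and 78.8 FPKM with 60mer. The groups did not overlap, and the difference was 0.18 ± 0.050 (limma, adjusted p = 0.0267). With 3mer it was 74.5, 72.9 and 68.0 FPKM, between the 2 groups or within the lower. After mBaffR-mFc it was 71.1, 68.5 and 63.4 FPKM without BAFF, 68.5, 65.0 and 60.0 FPKM with 3mer and 75.9, 75.9 and 74.3 FPKM with 60mer, a difference of 0.15 from no BAFF (adjusted p = 0.0929) and of 0.22 from 3mer (adjusted p = 0.0152).

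Polr1a (chr6:71909053-71984935, plus strand), the largest subunit of RNA polymerase I, stood at 22.5, 21.6 and 25.4 FPKM after control antibody alone and at 26.0, 26.4 and 26.9 FPKM with 60mer, a difference of 0.19 ± 0.056 (limma, adjusted p = 0.037). The highest library without BAFF came close to the lowest with 60mer. After mBaffR-mFc it was 23.5, 23.8 and 23.2 FPKM without BAFF, 23.6, 22.2 and 20.8 FPKM with 3mer and 27.1, 25.8 and 25.3 FPKM with 60mer. The 60mer libraries stood above the others there too, by 0.14 from no BAFF (adjusted p = 0.174) and by 0.23 from 3mer (adjusted p = 0.0265).

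Wdr12 (chr1:60069785-60098645, minus strand), which works with Pes1 and Bop1 in a complex of large subunit assembly, stood at 29.1, 26.6 and 24.8 FPKM after control antibody alone and at 32.4, 30.7 and 31.6 FPKM with 60mer. The groups did not overlap, and the difference was 0.23 ± 0.065 (limma, adjusted p = 0.0283). After mBaffR-mFc it was 28.3, 26.7 and 23.6 FPKM without BAFF and 30.1, 31.2 and 30.6 FPKM with 60mer, a difference of 0.22 that did not pass (adjusted p = 0.0624). Its partners did not pass: the differences after control antibody were 0.07 for Pes1 and 0.05 for Bop1.

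These 3 calls were less stable than that of Heatr1. Without 1 of the 6 libraries of Ab and Ab_60mer, Tsr1 passed in 0 of 6 fits, Wdr12 in 1 of 6 (without Ab library 1) and Polr1a in 1 of 6 (without Ab library 3). The number of the 38 genes past the threshold was then 3 without Ab library 1, 1 without Ab library 2, 2 without Ab library 3, 1 without Ab_60mer library 1, 1 without Ab_60mer library 2 and 2 without Ab_60mer library 3. Heatr1 was among them each time, and without Ab_60mer library 3 the other was Rrp9, at -0.25 (adjusted p = 0.0279).

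**Figure D2:**
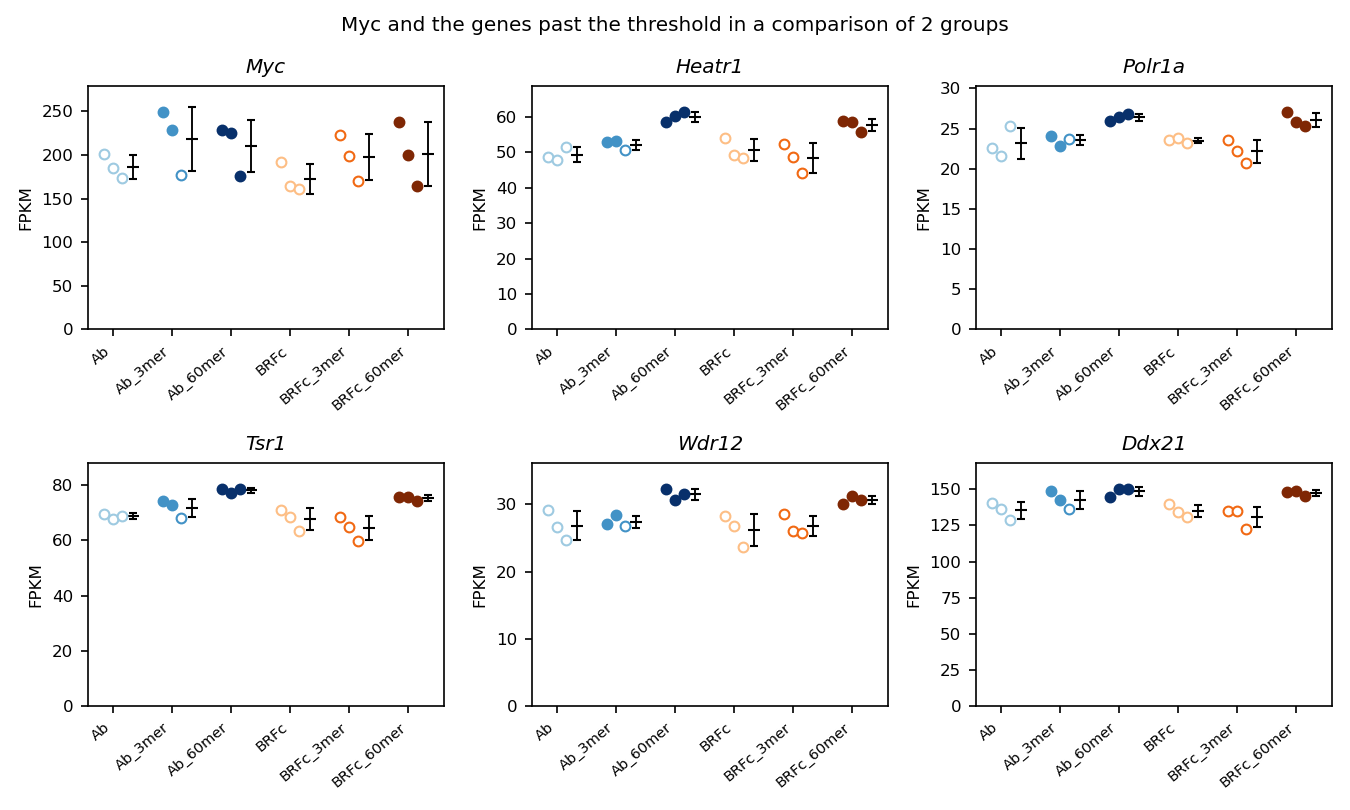
FPKM (vertical) of Myc and the 5 genes that passed a comparison of 2 groups, by group (horizontal), with 1 circle per library and the mean ± SD of 3 libraries beside it as a black bar. Filled circles are the 8 libraries with connective tissue transcripts and open circles the other 10. Heatr1 with BAFF 60mer lies at 55.7 to 61.4 FPKM, above all 12 other libraries, while the Myc groups overlap.

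Other genes of the same roles did not pass in this comparison. In box C/D ribonucleoproteins, which guide methylation of RNA, the differences were -0.04 for the methyltransferase Fbl, 0.01 for Nop56 and 0.19 for Nop58 (adjusted p = 0.0948). In box H/ACA ribonucleoproteins they were 0.16 for Dkc1, -0.14 for Gar1, 0.09 for Nhp2 and 0.07 for Nop10. The nucleolar proteins Ncl, Npm1, Nolc1, Ddx21 and Gnl3 had differences of 0.08 to 0.14, all above 0. Polr1b, the second largest subunit of RNA polymerase I, stood at 82.3, 72.5 and 71.6 FPKM without BAFF and 89.4, 85.1 and 83.6 FPKM with 60mer, a difference of 0.19 (adjusted p = 0.0635), while Ubtf, which binds the promoter of the ribosomal RNA genes, had -0.05.

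Among the 9 small subunit factors, Rrp12 had the largest difference of all 38 genes, 0.33 ± 0.109, and did not pass (adjusted p = 0.0552). It stood at 1.97, 1.79 and 1.91 FPKM without BAFF and 2.73, 2.58 and 2.56 FPKM with 60mer, and the pseudocount of 1 lessens the difference of so low a gene. Rrp9, Noc4l and Nob1 had differences below 0, of -0.12, -0.07 and -0.14, and Wdr43, Wdr75 and Ltv1 differences above 0, of 0.10, 0.12 and 0.05. Nob1, the nuclease that makes the last cut of the small subunit RNA, stood at 75.5, 73.6 and 71.5 FPKM without BAFF and 68.9, 68.4 and 62.6 FPKM with 60mer, so its libraries did not overlap, yet it did not pass (adjusted p = 0.108).

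Among the 11 large subunit factors the median difference was 0.00. Ppan was lower in all 3 libraries, at 125, 120.2 and 125 FPKM against 105, 108 and 118 FPKM, a difference of -0.16 (adjusted p = 0.112). Nip7, Noc3l and Mrto4 had differences of 0.06, 0.14 and 0.00, and Rrs1, Noc2l and Wdr74 of -0.02, -0.04 and -0.08. The polyamine synthesis genes Odc1, the first enzyme of the pathway, and Srm, spermidine synthase, had differences of 0.08 and 0.00.

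After mBaffR-mFc, 4.83% of all tested genes passed for BAFF 60mer against no BAFF, 1.46% higher and 3.37% lower, and by limma 0 of the 38 genes passed. At an unadjusted p under 0.05 there were 11 of 38, against 18.7% of all tested genes, and voom on the recovered fragments called 1. The smallest adjusted p values were those of Wdr12 (0.0624), Heatr1 (0.067) and Tsr1 (0.0929). The median difference was 0.11 against -0.02 over all tested genes, 32 of 38 differences were above 0 against 43% of all tested genes, and in 11 genes all 3 libraries with 60mer stood above all 3 without, against 7.13% of all tested genes. No gene had all 3 below, against 13.4%. Without BRFc library 1, 4 of the 38 genes passed.

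The difference between the 2 pretreatments in the response to BAFF 60mer was tested directly as an interaction. None of the 38 genes passed by limma, against 0.00859% of all tested genes. Only 1 of the 38 had an unadjusted p under 0.05, against 5.5% of all tested genes. That gene was Noc4l, a small subunit factor, with an interaction of 0.18 ± 0.063 (adjusted p = 0.88). Its level was 57.7, 55.1 and 54.1 FPKM after control antibody alone, 52.3, 53.6 and 53.2 FPKM with 60mer, 48.8, 50.6 and 50.8 FPKM after mBaffR-mFc alone and 51.3, 57.3 and 54.6 FPKM with both. Nop2 (0.17) and Rrp12 (-0.27) had the next smallest p values, with intervals that include 0. The 4 genes that rose after control antibody had interactions of -0.09 for Heatr1, -0.02 for Tsr1, -0.04 for Polr1a and -0.01 for Wdr12. The median SE of the interaction over the 38 genes was 0.09, so differences between the pretreatments as large as these changes were not detectable with 3 libraries per group.

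**Figure D3:**
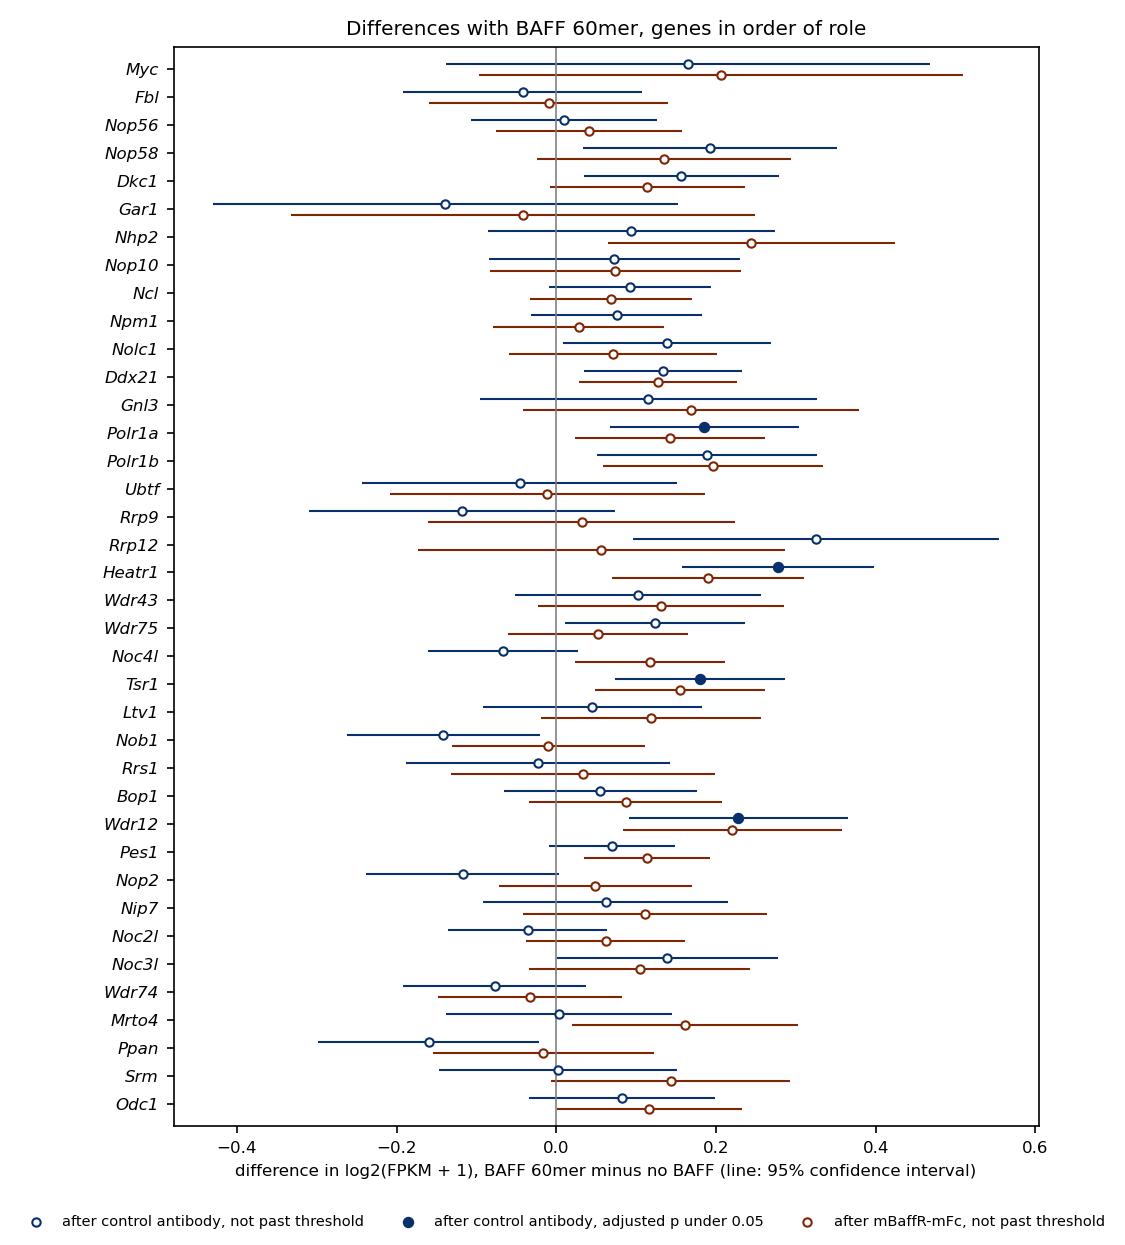
Difference in log2(FPKM + 1) between BAFF 60mer and no BAFF (horizontal) for each of the 38 genes (vertical, in order of role), after control antibody (blue) and after mBaffR-mFc (brown), with 95% confidence intervals as lines. Filled points are the 4 genes with adjusted p under 0.05, all after control antibody and all above 0, and most intervals of the other genes include 0.

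BAFF 3mer moved none of the 38 genes past the threshold. Against no BAFF, 0% of all tested genes passed after either pretreatment. At an unadjusted p under 0.05 there were 0 of 38 genes after control antibody and 2 of 38 after mBaffR-mFc, against 5.43% and 3.33% of all tested genes, and voom on the recovered fragments called 0 of 38 in both. The median difference of the 38 was -0.00 in both, with 18 and 19 of 38 above 0, against 43% and 43.9% of all tested genes. Libraries with and without 3mer did not overlap in 0 genes higher and 1 lower after control antibody, against 4.01% and 7.44%, and in 1 higher and 3 lower after mBaffR-mFc, against 3.56% and 5.62%. The smallest p values after control antibody belonged to Nop2 (-0.11), Nolc1 (0.11) and Ppan (-0.12), and after mBaffR-mFc to Nob1 (0.13), Rrs1 (-0.18) and Ubtf (-0.16). The interaction of BAFF 3mer with the pretreatment also passed for 0 of 38 genes, against 0% of all tested genes. An unadjusted p under 0.05 was found for 2 of 38, against 4.81% of all tested genes. These were Nob1 at 0.18 and Ncl at -0.14, with Ddx21 next at -0.12.

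Set against 3mer after control antibody, BAFF 60mer changed 4.81% of all tested genes, 1.8% higher and 3.01% lower, and by limma 0 of the 38. At an unadjusted p under 0.05 there were 7 of 38, against 20.3% of all tested genes, and voom on the recovered fragments called 1. Heatr1 was the nearest, at 52.9, 53.1 and 50.5 FPKM with 3mer and 58.6, 60.2 and 61.4 FPKM with 60mer, a difference of 0.20 (adjusted p = 0.0536), followed by Polr1b at 0.20 and Wdr12 at 0.19. In 9 of 38 genes all 60mer libraries stood above all 3mer libraries, against 11.8% of all tested genes, and in 0 below, against 12.1%. The median was 0.04, against -0.00 over all tested genes, with 30 of 38 above 0 against 48.8%.

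Among the 60mer comparisons, only this one had libraries with connective tissue transcripts on both sides. Between the 3 libraries of Ab_60mer and libraries 1 and 2 of Ab_3mer, 246 of all tested genes passed (2.11%) and none of the 38 did (limma). Of the 38, 5 had an unadjusted p under 0.05, against 1741 of the 11646 tested genes. Differences above 0 were found in 25 of 38, against 49.6% of all tested genes. Heatr1 differed by 0.18 ± 0.064 (adjusted p = 0.194), Wdr12 by 0.18 (adjusted p = 0.269), Polr1a by 0.16 (adjusted p = 0.246), Tsr1 by 0.08 (adjusted p = 0.518) and Myc by -0.19 (adjusted p = 0.589). The rises of Heatr1, Wdr12 and Polr1a were thus near their sizes over all 3 libraries of Ab_3mer (0.20, 0.19 and 0.16) and that of Tsr1 was smaller (0.12 over all 3), without passing.

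After mBaffR-mFc, BAFF 60mer against 3mer changed 5.16% of all tested genes, 2.05% higher and 3.11% lower, and 4 of the 38 (10.5%), all higher: Heatr1, Tsr1 and Polr1a, with the values given above, and Ddx21. Ddx21 (chr10:62580251-62602281, minus strand), an RNA helicase of the nucleolus, stood at 135, 135 and 123 FPKM with 3mer and 148, 149 and 145 FPKM with 60mer, a difference of 0.17 ± 0.047 (limma, adjusted p = 0.0405). Without BAFF it was 139.5, 135 and 131 FPKM. Over the 38 genes the median was 0.09 against -0.02 over all tested genes, 34 of 38 differences were above 0 against 44.6%, and in 14 all 60mer libraries stood above, against 10.1% of all tested genes. In 2 genes they stood below, against 14.1%.

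Library 3 of BRFc_3mer was the lowest of its group for Heatr1, Tsr1, Polr1a and Ddx21. Without it, the number of the 38 past the threshold fell from 4 to 0, as it did without BRFc_3mer library 2 and without BRFc_60mer library 2. It was 1 without BRFc_60mer library 1, 3 without BRFc_60mer library 3 and 5 without BRFc_3mer library 1. The fit left out 1 library at a time and kept the other groups for the estimate of the spread.

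The pretreatments themselves were compared at each BAFF state, and 0 of the 38 genes passed in any by limma. The shares of all tested genes were 0% without BAFF, 0% with 3mer and 0.0258% with 60mer. Without BAFF, 6 of 38 genes had an unadjusted p under 0.05 (5.91% of all tested), and 29 of 38 stood lower after mBaffR-mFc and 9 higher, against 49% of all tested genes higher, with a median of -0.06. All 3 libraries stood lower in 2 genes, against 5.29%, and higher in 0, against 5%. The smallest p values were those of Noc4l (-0.15), Nhp2 (-0.23), Nob1 (-0.15) and Mrto4 (-0.18). With 3mer 34 of 38 stood lower and 4 higher, against 53.9% of all tested genes higher, with a median of -0.07. All 3 libraries stood lower in 4 genes, against 4.61%, and higher in 0, against 5.43%, and the smallest p values were those of Tsr1 (-0.15), Ddx21 (-0.12) and Ncl (-0.11). With 60mer 29 of 38 stood lower and 9 higher, against 48% of all tested genes higher, with a median of -0.03. All 3 libraries stood lower in 4 genes, against 4.31%, and higher in 0, against 4.1%, and the smallest p values were those of Rrp12 (-0.15), Nop2 (0.08) and Wdr75 (-0.07). The medians over all tested genes were -0.00, 0.01 and -0.00, and voom on the recovered fragments called 0 of the 38 in each.

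Over all 6 groups in 1 test (limma's F test), 5 of the 38 genes passed, against 8.93% of all tested genes: Heatr1 (adjusted p = 0.00555), Tsr1 (0.0113), Polr1a (0.0336), Wdr12 (0.0371) and Polr1b (0.0398). Both large subunits of RNA polymerase I were among them. Myc had an adjusted p of 0.551.

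The genes that rose had long transcripts. Across the 38 genes the difference for BAFF 60mer after control antibody went with the log2 length of the longest coding transcript, with a Pearson r of 0.63 and a Spearman rho of 0.66, and with its GC content, with r of -0.59 and rho of -0.61. Across 11568 tested genes the same correlations were 0.05 and 0.17 for length and -0.30 and -0.34 for GC content. For BRFc_60mer against BRFc_3mer the correlations with length were 0.61 and 0.65, and for BRFc_60mer against BRFc 0.34 and 0.32. Where no tested gene passed, they were 0.49 and 0.56 for Ab_3mer against Ab and 0.57 and 0.59 for BRFc against Ab. They were -0.35 and -0.39 for BRFc_3mer against BRFc and -0.34 and -0.36 for BRFc_3mer against Ab_3mer, where none passed either. For Ab_60mer against Ab_3mer they were 0.49 and 0.48, and for BRFc_60mer against Ab_60mer -0.14 and -0.08. Correlations with length were thus also present in comparisons without BAFF 60mer. Those comparisons share the libraries of Ab or of BRFc_3mer with 60mer comparisons above, so they are not independent of them. The points share the same 6 libraries within a comparison, genes are not independent replicates, and the values are given as a description. Heatr1 has a transcript of 6780 bases, Polr1a of 9216, Wdr12 of 10012 and Tsr1 of 3389, while Nob1 and Ppan, among the lowest differences, have 1658 and 1670.

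With GC content and length taken out of each library's values, an alternative chosen after the data were seen, Heatr1 (0.21, adjusted p = 0.021) and Tsr1 (0.19, adjusted p = 0.0189) still passed, Wdr12 (0.08, adjusted p = 0.526) and Polr1a (0.10, adjusted p = 0.169) did not, and Rrp12 (0.42), Bop1 (0.22) and Pes1 (0.11) did. The part of length or GC content in the main values was not tested further.

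**Figure D4:**
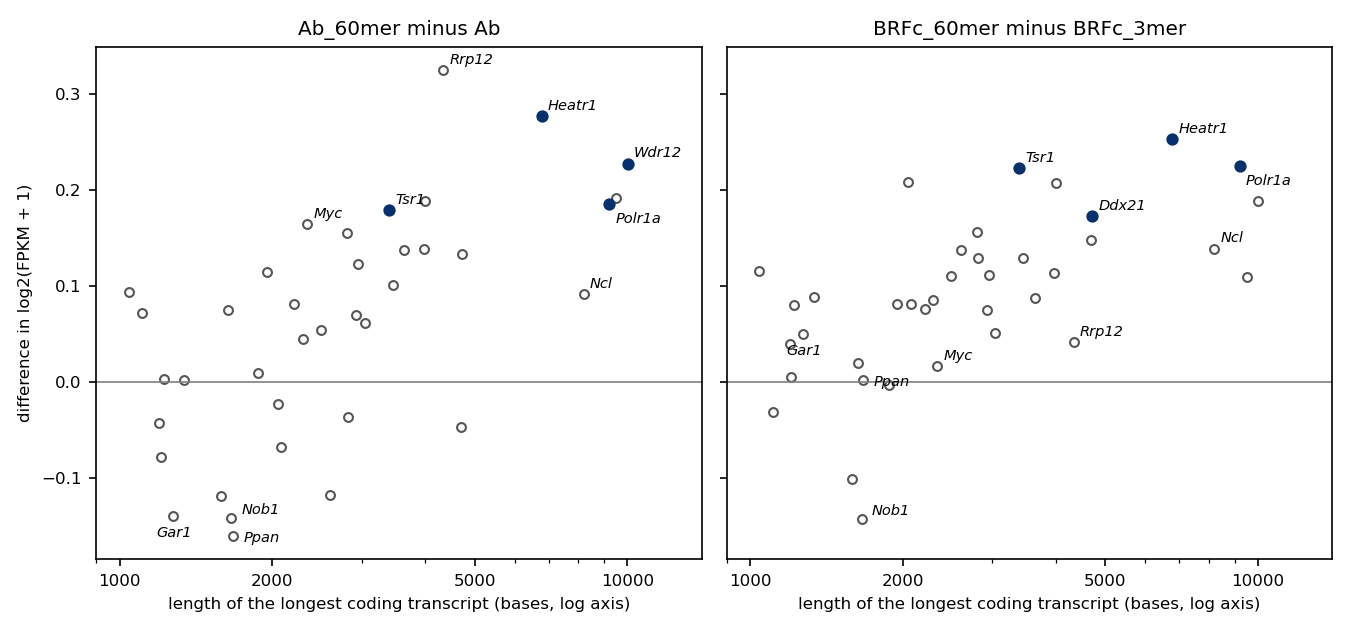
Difference in log2(FPKM + 1) (vertical) against length of the longest coding transcript in bases on a log axis (horizontal) for the 38 genes, for BAFF 60mer against no BAFF after control antibody (left) and against 3mer after mBaffR-mFc (right). Filled points passed the test; they lie among the longer transcripts, from 3389 bases for Tsr1 upwards, and Nob1 at 1658 bases is among the lowest in both.

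Genes that work beside the 38 were counted from lists, and the shares of all tested genes are again 5.04% higher and 8.94% lower for BAFF 60mer after control antibody and 1.46% higher and 3.37% lower after mBaffR-mFc. Of the list of the MYC network, 9 of 12 genes were tested. After control antibody and 60mer, 4 stood lower, 1 stood higher and 4 did not pass, with a median of -0.19. After mBaffR-mFc, 2 stood lower, Mxd4 and Mlxip, 0 stood higher and 7 did not pass, with a median of -0.10. Mxd4, a repressor that competes with MYC for MAX, stood at 24.7, 25.1 and 26.9 FPKM without BAFF and 16.2, 16.5 and 17.6 FPKM with 60mer. The groups lay far apart, and the difference was -0.58 ± 0.098 (limma, adjusted p = 0.00134).

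Mnt, another repressor that pairs with MAX, fell from 46.2, 49.2 and 52.5 FPKM to 36.6, 38.4 and 40.4 FPKM (-0.35, limma adjusted p = 0.00471). Max itself fell from 60.6, 61.4 and 57.3 FPKM to 52.1, 52.0 and 49.9 FPKM (-0.22, adjusted p = 0.00558). Mga, a large MAX partner that represses transcription, was the one that rose, from 56.2, 56.2 and 62.5 FPKM to 74.2, 72.1 and 67.8 FPKM (0.29, adjusted p = 0.0124), and with GC content and length taken out it did not pass (0.11, adjusted p = 0.0612). In Mxd4, Mnt, Max and Mga the libraries with and without 60mer did not overlap. Mxd1, the other gene that fell, had a mean of 5.11 FPKM in Ab and 4.15 FPKM in Ab_60mer. With 1 of the 6 libraries left out, Mxd4, Mnt and Max passed in 6 of 6 fits, Mga in 3 and Mxd1 in 0.

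Mxd4 fell in each of the 4 comparisons of BAFF 60mer with no BAFF or with 3mer. After mBaffR-mFc it stood at 21.7, 25.2 and 28.9 FPKM without BAFF, 24.2, 22.4 and 26.5 FPKM with 3mer and 17.01, 17.06 and 19.79 FPKM with 60mer, a difference of -0.47 from no BAFF (limma, adjusted p = 0.0102) and of -0.42 from 3mer (adjusted p = 0.0183). Against 3mer after control antibody it was -0.56 (adjusted p = 0.00289), and among the libraries with connective tissue transcripts alone it was -0.46 and still passed (adjusted p = 0.0196). Mnt was -0.23 in that last comparison and did not pass (adjusted p = 0.146). With a yes-or-no term for connective tissue transcripts in the fit, Mxd4 had a difference of -0.28 from control antibody alone (adjusted p = 0.673), in a fit where 16 of all tested genes passed.

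**Figure D5:**
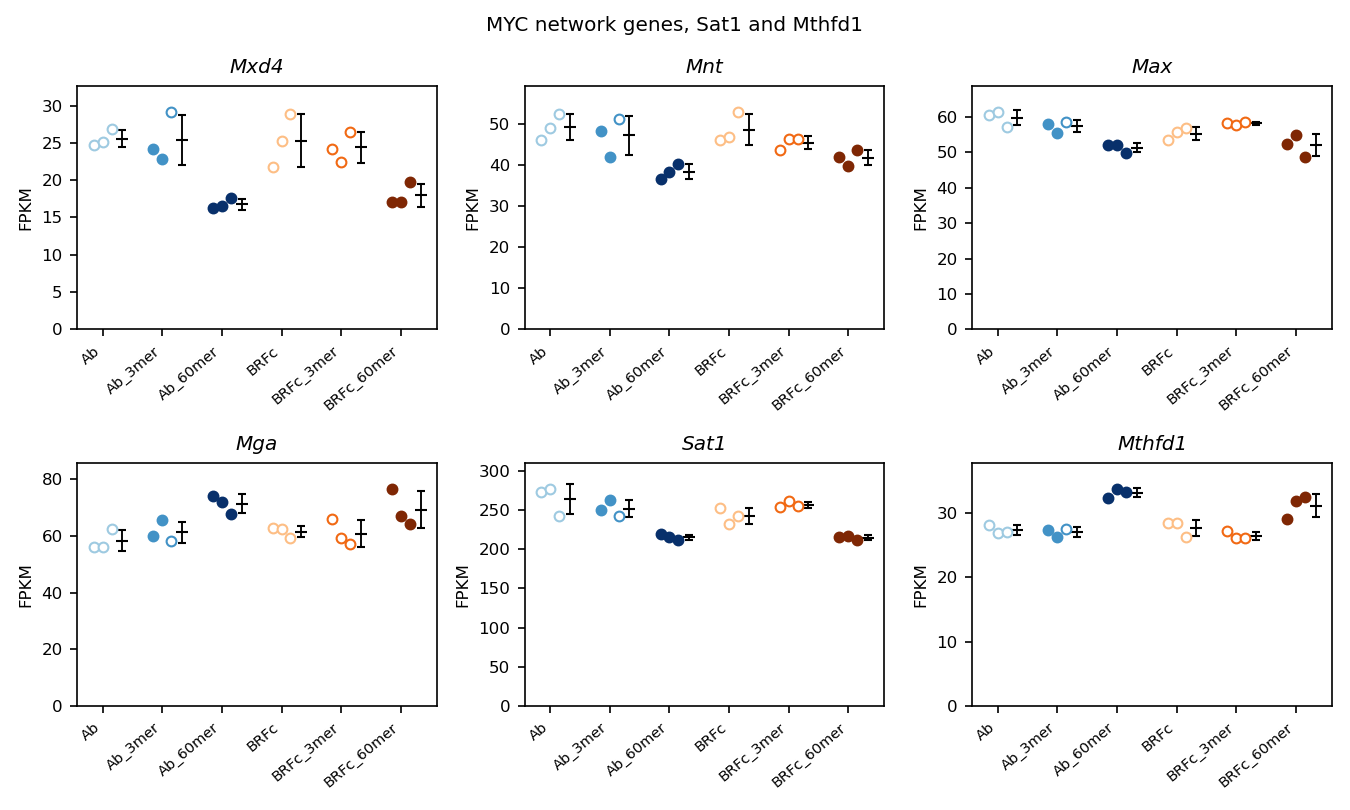
FPKM (vertical) of the MYC network genes Mxd4, Mnt, Max and Mga, of Sat1 and of Mthfd1, by group (horizontal), with 1 circle per library and the mean ± SD of 3 libraries beside it as a black bar. Filled circles are the 8 libraries with connective tissue transcripts. Mxd4 lies at 16.2 to 19.8 FPKM in the 6 libraries with BAFF 60mer and at 21.7 to 29.1 FPKM in the other 12.

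Of 91 other ribosome biogenesis genes tested, 10 were higher, 3 were lower and 78 did not pass with BAFF 60mer after control antibody, with a median of 0.06. The 13 of 91 that passed are a share near the 14% of all tested genes. Utp20, a scaffold of the small subunit processome, rose by 0.39 (limma, adjusted p = 0.00295), Mdn1, the large ATPase that remodels the large subunit precursor, by 0.52 (adjusted p = 0.00896), Urb1 by 0.26 (adjusted p = 0.00965) and Efl1, a GTPase of late large subunit maturation, by 0.22 (adjusted p = 0.00903). The 3 lower genes were Sbds, with a mean of 84.6 FPKM in Ab and 74.3 FPKM in Ab_60mer, Ddx52 (54.9 and 49.2 FPKM) and Kri1 (45.1 and 34.6 FPKM). With 1 of the 6 libraries left out, Utp20 and Urb1 passed in 6 of 6 fits, Mdn1 and Efl1 in 5 and Sbds in 4. Ddx52 and Kri1 passed in 1 of 6. After mBaffR-mFc 3 of 91 were higher, Utp6, Wdr36 and Nop16, and 0 were lower. Of the 12 genes of the RNA polymerase I machinery beyond the members, 1 was lower after control antibody, Taf1c, at -0.22, and none passed after mBaffR-mFc. Taf1c passed in 1 of 6 fits with 1 library left out. Of 13 RNA exosome genes, which trim the precursor RNAs, none passed in either. Their smallest p values after control antibody were those of Exosc3 (-0.32) and Dis3 (0.22).

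Of 12 further polyamine genes, 3 were lower and none higher with BAFF 60mer after control antibody. Sat1, which acetylates polyamines for breakdown or export, stood at 274, 277 and 242 FPKM without BAFF and 219, 215 and 212 FPKM with 60mer, with no overlap (-0.29, limma adjusted p = 0.00125). Dhps, which uses spermidine to modify the translation factor eIF5A, was at -0.18 and Smox, an oxidase of spermine, at -0.41. With 1 of the 6 libraries left out, Sat1 passed in 6 of 6 fits, Dhps in 4 and Smox in 2. The members Odc1 and Srm, on the side of synthesis, did not pass. After mBaffR-mFc none of the 12 passed against no BAFF. Smox, lower after control antibody, then had a difference of 0.13 (limma, adjusted p = 0.592). Sat1 was at 253, 232 and 243 FPKM without BAFF, 255, 261 and 255 FPKM with 3mer and 215, 217 and 211 FPKM with 60mer, with a difference of -0.17 from no BAFF that did not pass (adjusted p = 0.0505) and of -0.26 from 3mer that did (adjusted p = 0.00486).

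Of 25 nucleotide synthesis genes, 6 rose and 2 fell with BAFF 60mer after control antibody. Mthfd1, an enzyme of one-carbon metabolism, rose from 28.2, 26.8 and 27.1 FPKM to 32.4, 33.8 and 33.3 FPKM (0.27, limma adjusted p = 0.00208), Cad, which opens pyrimidine synthesis, by 0.23 (adjusted p = 0.0279) and Gart, of purine synthesis, by 0.20 (adjusted p = 0.0266). With 1 of the 6 libraries left out, Mthfd1 passed in 6 of 6 fits, and Cad and Gart in 2 of 6 each. Among the libraries with connective tissue transcripts alone, Mthfd1 (0.30, adjusted p = 0.00915) and Sat1 (-0.25, adjusted p = 0.0233) still passed. After mBaffR-mFc none of the 25 passed against no BAFF, and 4 did against 3mer, Mthfd1, Gart, Cad and Atic. Of 20 translation initiation genes 1 was higher after control antibody, Eif3c, at 0.12 (passing in 2 of 6 fits with 1 library left out), and none passed after mBaffR-mFc. In bulk RNA, a lower level of these genes from fewer cells of a type and one from less RNA per cell cannot be told apart.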

How the data were processed

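The FPKM values of 18 libraries were deposited as 1 table of 35275 Ensembl gene identifiers; the extraction kit's RNA was sequenced by a company that also determined FPKM, per the labels' protocols, and aligner, counter, build and use of strand are not given in the sources used here. Gene names and coordinates were taken from GENCODE M21 (GRCm38), which named 34490 identifiers. Groups came from the treatment label of each sample. The 11646 genes whose mean reached 1 FPKM were put on the log2(FPKM + 1) scale, which lessens the differences of low genes. They entered 1 fit of all 6 groups in R 4.3.3 with limma 3.58.1, its moderated test with a mean trend, with Benjamini-Hochberg adjustment over all tested genes and a threshold of 0.05. The 38 genes and the further lists were chosen with earlier results of these data known. All 38 genes are named, and of each further list up to 4 genes past the threshold, or else up to 2, by smallest p. Mxd1 and the ribosome biogenesis genes that fell (Sbds, Ddx52 and Kri1) are named besides. Every call by adjusted p in the text is limma's unless voom is named.

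Steps between FPKM values gave each library's fragments: 84.9 to 89.3% of values below 500 fragments were whole to within 0.1, in genes with 1 transcript. Depth at a gene was 130 fragments or more for each of the 38 genes. The fit was tested on simulated data. Alternatives were a pseudocount of 0.1, no filter on low genes, a filter at 5 FPKM, scaling by median of ratios, library quality weights, voom on the recovered fragments, the compared groups alone, a yes-or-no term for connective tissue transcripts, and each library left out; correction for GC content and length and a residual component were added after the data were seen.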

Additional observations from a re-analysis of the deposited data

How the results depend on the processing

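With 38 genes in view, the count past the threshold depended on the setting. For BAFF 60mer against no BAFF after control antibody (4) it was 2 without a filter on low values, 2 with only the groups compared in the fit, 0 with a yes-or-no term for connective tissue transcripts and 13 with the first residual component as a term (11 higher, 2 lower), and 1 to 3 with 1 library left out. After mBaffR-mFc (0) it was 3 with median-of-ratios scaling, 7 with quality weights, 1 with voom, 3 with GC content and length taken out, 7 with the residual component, and 0 to 4 with 1 library left out. Against 3mer after control antibody (0) it was 1 with a minimum mean of 5 FPKM, 1 with quality weights, 1 with voom and 3 with the residual component. Against 3mer after mBaffR-mFc (4) it was 9 with quality weights, 0 with only the groups compared, 0 with the connective tissue term, 8 with the residual component, and 0 to 5 with 1 library left out. Over all 6 groups (5) it was 2 without a filter, 8 with quality weights, 0 with the connective tissue term, 8 with GC content and length taken out, 10 with the residual component, and 2 to 7 with 1 library left out. No difference of a member past the threshold in a comparison of 2 groups changed sign under these settings, nor did that of a listed gene past it in a comparison of BAFF 60mer; that of Myc, which did not pass, went from 0.17 to -0.26 with the connective tissue term for BAFF 60mer against no BAFF after control antibody. The other comparisons gave 0 under each setting run. The share of all tested genes past the threshold also varied with the setting and is not set beside these counts. Nor is it set beside most counts above with voom or with 1 library left out. These counts describe how stable the calls were and are no comparison with all tested genes. With fewer samples in a fit the spread is less well known; the connective tissue term nearly coincides with BAFF 60mer, and the other causes were not tested. The residual component, 23.1% of the residual variation, and the GC content and length correction were chosen after seeing the data. The component came from the same residuals that it then reduced, so a smaller spread with it was built in and its counts are no support for the calls. No paired analysis was run, because the labels do not pair libraries and the numbers used here follow only the order of deposition.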
